A study of Homo sapiens with 32 samples.

Results

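The myogenic regulatory and MEF2 factors examined here are 9 transcriptional regulators of the skeletal muscle programme: MYOD1, MYOG, MYF5 and MYF6 (myogenic basic helix-loop-helix factors), MEF2A, MEF2C and MEF2D (MADS-box factors), SIX4 (a homeodomain factor) and EYA2 (a coactivator). They were selected by gene symbol among the 18980 coding genes listed in each RNA-seq file, and all 9 symbols were found. The measurements were made in RH4 cells, an established line of human alveolar rhabdomyosarcoma, a childhood tumour with muscle features. The series describes its compounds as inhibitors or degraders of CBP/p300, and 16 libraries come from treated cells: each of the compounds A485, dCBP, IHK-44 and JQAD was given at 2 doses (100 nM and 1000 nM) and sampled after 2 h and after 6 h. The controls were 4 libraries: DMSO, the solvent, at 2 h and 6 h, and a condition named NT, not spelled out in the labels, at 2 h and 6 h. All 20 libraries are of the same line with no genetic change named, each condition has 1 library, and the other 12 samples of the series (ChIP-seq and ChRO-seq) were not analysed here.

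CBP and p300 are acetyltransferases that modify histones at enhancers and promoters and serve as coactivators of many transcription factors, MYOD1 among them. A485 is known as an inhibitor of their catalytic activity. In developing muscle, SIX4 and its EYA partners act through MEF3 sites upstream of the myogenic helix-loop-helix factors. MYOD1 and MYF5 commit cells to the muscle lineage through E-boxes, MYOG drives differentiation, MYF6 acts mainly in later muscle, and MEF2 proteins bind AT-rich sites and cooperate with the myogenic factors. Alveolar rhabdomyosarcoma cells express MYOD1 and MYOG without completing differentiation.

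The stretch before the MYOG start is shown because it holds a site of each of these 3 classes of factor. MEF2A was the detected member with no lower call in any comparison with the controls. The stretch before its most upstream start is shown for its higher content of CG dinucleotides. Both are 250 bases long, end at the base before the annotated start and are given 5′ to 3′ on the gene's strand, from RefSeq on GRCh38.p14 (MYOG at chr1:203086013-203086262, minus strand, and MEF2A at chr15:99565167-99565416, plus strand). Capitals in MYOG mark, in order, the MEF3 motif TCAGGTTTC, the MEF2 core TATATTTA and an E-box (CANNTG), each searched on both strands with no overlap between them. Capitals in MEF2A mark every CG dinucleotide.
MYOG: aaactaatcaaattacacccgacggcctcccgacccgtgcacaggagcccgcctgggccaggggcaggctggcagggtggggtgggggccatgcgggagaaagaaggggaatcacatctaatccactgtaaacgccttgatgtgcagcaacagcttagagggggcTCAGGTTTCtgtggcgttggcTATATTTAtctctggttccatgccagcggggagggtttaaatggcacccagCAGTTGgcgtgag
MEF2A: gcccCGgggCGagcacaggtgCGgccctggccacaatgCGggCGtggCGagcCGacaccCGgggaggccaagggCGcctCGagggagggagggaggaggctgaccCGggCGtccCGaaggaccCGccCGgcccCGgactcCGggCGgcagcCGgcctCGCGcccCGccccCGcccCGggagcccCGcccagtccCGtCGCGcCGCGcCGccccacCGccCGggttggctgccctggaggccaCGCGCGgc

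In MYOG the MEF3 motif begins 85 bases before the start, the MEF2 core 64 bases and the E-box 13 bases before it. Of the 35116 promoter stretches in the table, 0.288% held the MEF3 motif, 1.15% the MEF2 core and 61.8% an E-box, and 1, that of MYOG, held all 3. The MEF3 and MEF2 letters were searched as exact strings, those of the MYOG stretch itself, so variant sites elsewhere were not counted. How rare these motifs appear, and that MYOG alone held all 3, thus depends on the letters chosen. The MYOG stretch holds 10 CG dinucleotides and that of MEF2A 36. The title of the series concerns the density of CpG islands, so base composition was also taken over the full windows, which add 50 bases after the start. A GC content of at least 50% with an observed-to-expected CpG ratio of at least 0.6 was met by 46.9% of all windows. All 3 MEF2A windows met it (ratios 0.83 to 0.89), as did SIX4 at 0.602, next to the limit, and 1 of the 7 MEF2C windows, at 1.19. The windows of MYOG (0.429), MYF5 (0.491), MYF6 (0.0758) and MEF2D (0.197) did not. The GC content of the MYOG window, 59.3%, was near the median of all windows (58.7%), and that of the most upstream MEF2A window was 82.3%. Whether the response of a gene follows its CpG content was not tested. The table matched 7 of the 9 members, MYOD1 and EYA2 are named only, and which of several starts RH4 cells use was not tested. A motif match is a description of letters and shows no binding.

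In the control RH4 libraries the set was dominated by MYOD1 and MYOG. Compared per length, in TPM (length-scaled transcript abundance) over the 4 DMSO and NT libraries, MYOD1 stood at 374 ± 26.4 (SD, n = 4) and MYOG at 220.0 ± 10.2. SIX4 followed at 17.8 ± 3.09 TPM and MEF2C at 15.2 ± 2.46, then MEF2A at 8.78 ± 1.18, MEF2D at 8.35 ± 1.82 and EYA2 at 6.92 ± 0.981. The ranges of SIX4 and MEF2C overlapped, as did those of MEF2A and MEF2D and of MEF2D and EYA2. Within each control library, however, SIX4 exceeded MEF2C and MEF2D exceeded EYA2, whereas the order of MEF2A and MEF2D differed between libraries. These orders were not tested. MYF5 had 1 read in each of 3 libraries (NT at 2 h, 100 nM A485 at 6 h and 100 nM JQAD at 6 h) and MYF6 had 1 read in each of 2 (100 nM dCBP and 100 nM IHK-44, both at 2 h). No fold is given for these 2 genes, since a count of 0 allows up to 3 reads, or 0.179 to 0.223 CPM (counts scaled to a common total) depending on the library.

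Total counts over the coding genes ran from 13466631 to 16799327 per library, so that the 7 detected members rested on 74 reads (EYA2 in 1000 nM dCBP at 6 h) to 11569 reads (MYOD1 in 1000 nM JQAD at 6 h). Muscle markers were present in every library: desmin (DES) ranged from 266 to 465 CPM, CHRNA1 from 332 to 593 and FGFR4 from 533 to 928. Of the 7 markers of other lineages, EPCAM was at 0 throughout, and all 7 together summed to between 0.199 and 1.71 CPM. These are bulk measurements, so fewer transcripts per cell and fewer cells with transcripts cannot be told apart. CPM and TPM are shares of a library's own total, so the amount of RNA per cell was not measured and all changes are relative. On GRCh38.p14 (RefSeq), the members lie on chromosome 1 (MEF2D at 156463727-156500775 and MYOG at 203083129-203086012), chromosome 5 (MEF2C, 88717117-88904105), chromosome 11 (MYOD1, 17719571-17722136), chromosome 12 (MYF6, 80707634-80709474, next to MYF5, 80716912-80719671), chromosome 14 (SIX4, 60709539-60724351), chromosome 15 (MEF2A, 99565417-99716488) and chromosome 20 (EYA2, 46894843-47188844).

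**Figure D1:**
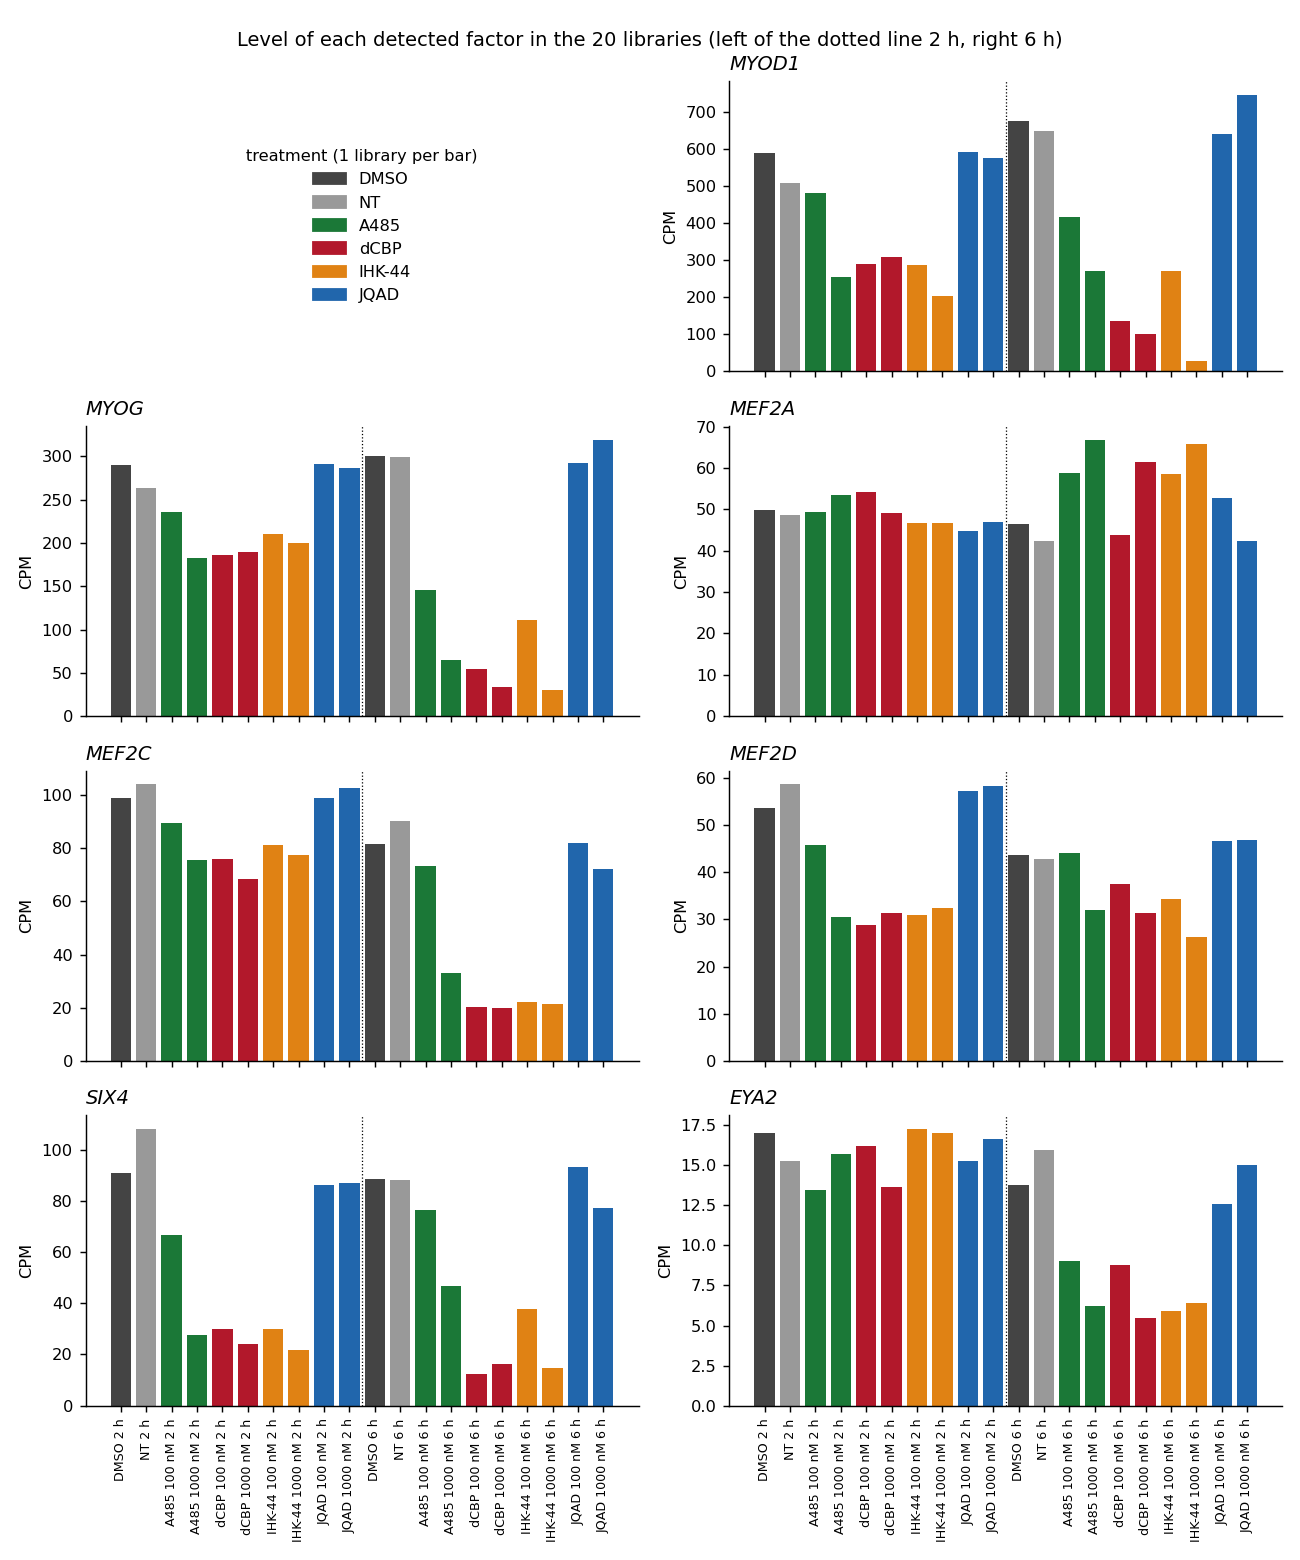
Bars give the deposited CPM (y axis, from 0) of each of the 7 detected factors in each of the 20 libraries (x axis), with 2 h left and 6 h right of the dotted line, 1 library per bar and no error bars. MYOD1 falls from 677 CPM in DMSO at 6 h to 27.2 CPM with 1000 nM IHK-44, while MEF2A stays between 42.2 and 66.8 CPM in all libraries.

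The comparison at 6 h asked which factors had moved once the compounds had acted for longer. Most of the set was lower with dCBP and IHK-44: 5 of the 7 tested members fell with dCBP (MYOD1, MYOG, MEF2C, SIX4 and EYA2) and 6 of 7 with IHK-44 (the same 5 and MEF2D). Among all 13260 genes tested, 22.4% were called lower with dCBP and 21.4% with IHK-44. The median log2 change of the 7 members was -2.24 with dCBP and -1.91 with IHK-44, where that of all genes was 0.06 for both compounds. A485 lowered MYOG, MEF2C and EYA2 (3 of 7, against 8.7% of genes called lower) and raised MEF2A (1 of 7, against 7.87% called higher). With JQAD, 0 of 7 members and 0% of genes were called at 6 h, 284 genes and 0 members had an unadjusted p under 0.05, and DESeq2 called 1 gene and limma 0. In these tests the 100 nM and 1000 nM libraries of a compound at 6 h stood against DMSO and NT at 6 h, 2 libraries a side, with edgeR's quasi-likelihood test and Benjamini-Hochberg adjusted p-values under 0.05. Before this fit's scaling, the median gene's CPM was itself 0.14 to 0.22 higher (log2) than in DMSO in the 1000 nM A485 library and all dCBP and IHK-44 libraries of 6 h, so that a raw CPM ratio understates a fall relative to the median gene.

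MYOD1, which can convert other cells to muscle, stood at 677 CPM in DMSO and 648 CPM in NT at 6 h. It was at 136 CPM with 100 nM dCBP and 101 CPM with 1000 nM dCBP, and at 270.1 CPM with 100 nM IHK-44 and 27.2 CPM with 1000 nM IHK-44. With A485 it was at 418 and 271.5 CPM at the lower and the higher dose, and with JQAD at 641 and 747 CPM. The dCBP, IHK-44 and A485 libraries all lie below both controls, while the JQAD libraries lie on both sides of them. The fitted log2 change was -2.64 ± 0.618 (SE, adjusted p = 0.00256) with dCBP, 6.23-fold lower, and -2.31 ± 0.608 (adjusted p = 0.00611) with IHK-44. The IHK-44 value averages over 2 unlike libraries, and became -1.45 without the 1000 nM library (SE 0.344, adjusted p = 0.00629) and -4.80 without the 100 nM library. For A485 the value was -1.02 ± 0.584 (adjusted p = 0.235), with a 95% interval from -2.32 to 0.28.

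MYOG, the factor of terminal differentiation, was at 300.1 CPM in DMSO and 299 CPM in NT at 6 h. Its levels were 54.5 and 34.2 CPM with 100 nM and 1000 nM dCBP, 111 and 29.8 CPM with IHK-44, 146 and 65.0 CPM with A485, and 292 and 319 CPM with JQAD. Every dCBP, IHK-44 and A485 library was lower than both controls. The log2 change was -2.91 ± 0.448 (adjusted p = 9.38e-05) with dCBP, -2.25 ± 0.432 (adjusted p = 0.000611) with IHK-44 and -1.58 ± 0.421 (adjusted p = 0.0203) with A485. Leaving out 1 of the treated libraries moved the IHK-44 value of MYOG to -1.59 (without 1000 nM) or -3.52 (without 100 nM) with the call kept, whereas the A485 call was lost without the 1000 nM library (-1.08, adjusted p = 0.248).

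The 3 MEF2 genes went separate ways at 6 h. MEF2C, prominent in differentiating muscle, stood at 81.5 CPM in DMSO and 90.04 CPM in NT, and at 20.5 and 19.9 CPM with 100 nM and 1000 nM dCBP, 22.3 and 21.3 CPM with IHK-44, 73.3 and 33.1 CPM with A485, and 82.1 and 72.1 CPM with JQAD. The 4 libraries of dCBP and IHK-44 lie close together, at 24.4% to 27.4% of the DMSO level. MEF2C fell by 2.24 ± 0.254 on the log2 scale with dCBP (adjusted p = 9.06e-06), by 2.14 ± 0.249 with IHK-44 (adjusted p = 9.15e-06) and by 0.76 ± 0.236 with A485 (adjusted p = 0.0369). The A485 fall of MEF2C rested on the higher dose, since it was -1.50 without the 100 nM library and -0.27 without the 1000 nM library (adjusted p = 0.324).

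MEF2D, a broadly expressed MEF2 gene, was at 43.7 CPM in DMSO and 42.9 CPM in NT at 6 h, and moved least among the members that fell. It stood at 37.6 and 31.4 CPM with 100 nM and 1000 nM dCBP, at 34.4 and 26.3 CPM with IHK-44, at 44.1 and 31.9 CPM with A485, and at 46.7 and 46.95 CPM with JQAD. The log2 change with IHK-44 was -0.68 ± 0.192 (adjusted p = 0.00957), not called without its 1000 nM library (-0.48, adjusted p = 0.128), and the value for dCBP was -0.48 ± 0.193 (adjusted p = 0.0513). MEF2A, also broadly expressed, was at 46.3 CPM in DMSO and 42.2 CPM in NT at 6 h, and at 58.8 and 66.8 CPM with 100 nM and 1000 nM A485, 58.6 and 65.8 CPM with IHK-44, 43.7 and 61.4 CPM with dCBP, and 52.7 and 42.3 CPM with JQAD. It rose by 0.42 ± 0.128 on the log2 scale with A485 (adjusted p = 0.0358), and the value with IHK-44 was 0.32 ± 0.127 (adjusted p = 0.0533) and with dCBP 0.09 ± 0.129 (adjusted p = 0.604). In 100 nM IHK-44 at 6 h the single-library log2 ratio of MEF2A to DMSO was 0.33 in CPM and -0.07 in TPM, where the median of all genes was itself 0.18 in CPM and -0.22 in TPM, so the change of sign follows the scaling. In A485 at 6 h the TPM ratios of MEF2A were 0.68 (100 nM) and 0.82 (1000 nM), beside all-gene medians of 0.33 and 0.42. The rise with A485 was not called without NT (log2 0.35, adjusted p = 0.271).

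SIX4, which binds MEF3 sites, was at 88.7 CPM in DMSO and 88.0 CPM in NT at 6 h. Its levels were 12.2 and 16.4 CPM with 100 nM and 1000 nM dCBP, 37.6 and 14.8 CPM with IHK-44, 76.6 and 46.8 CPM with A485 and 93.3 and 77.4 CPM with JQAD. With dCBP the lower dose gave the lower level, and all A485 levels lie between those of the controls and those of dCBP and IHK-44. SIX4 changed by a log2 value of -2.78 ± 0.413 with dCBP (adjusted p = 6.89e-05), 6.88-fold lower, and of -1.91 ± 0.388 with IHK-44 (adjusted p = 0.000924), and the value with A485 was -0.60 ± 0.370 (adjusted p = 0.275). The IHK-44 change of SIX4 was -1.38 without its 1000 nM library and -2.77 without its 100 nM library, and was called both times. EYA2, a coactivator that reaches DNA through its homeodomain partners, was the lowest of the detected members, at 13.8 CPM in DMSO and 15.96 CPM in NT. It was at 8.78 and 5.46 CPM with 100 nM and 1000 nM dCBP, 5.89 and 6.44 CPM with IHK-44, 9.01 and 6.22 CPM with A485, and 12.6 and 15.0 CPM with JQAD. All 6 libraries of dCBP, IHK-44 and A485 were lower than both controls, with log2 changes of -1.21 ± 0.219 (dCBP, adjusted p = 0.000358), -1.44 ± 0.218 (IHK-44, adjusted p = 8.04e-05) and -1.05 ± 0.215 (A485, adjusted p = 0.00633).

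The 6 h calls of MYOD1, MYOG, MEF2C, SIX4 and EYA2 with dCBP and with IHK-44 kept their direction and stayed past the threshold under all 26 alternative settings, which include leaving out each library in turn. The 4 calls with A485 did not: without NT as a control, 0 of them remained, and the same was true without the 1000 nM A485 library.

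At 2 h fewer members were called, and the calls did not follow the size of the change alone. SIX4 and MEF2D fell with dCBP and with IHK-44 (2 of 7 members each, against 2.67% and 2.45% of genes called lower), while MYOD1, MYOG, MEF2C and EYA2 did not pass the test. SIX4 stood at 91.1 CPM in DMSO and 108 CPM in NT at 2 h. At 100 nM and 1000 nM its levels were 30.04 and 24.2 CPM with dCBP, 30.04 and 21.8 CPM with IHK-44, 66.9 and 27.8 CPM with A485, and 86.2 and 87.0 CPM with JQAD. Both dCBP, both IHK-44 and the 1000 nM A485 libraries thus stood at 24.0% to 33.0% of the DMSO level. The log2 change of SIX4 was -1.92 ± 0.390 with dCBP (adjusted p = 0.0122) and -1.98 ± 0.390 with IHK-44 (adjusted p = 0.00816). MEF2D was at 53.6 CPM in DMSO and 58.7 CPM in NT, and at 28.8 to 32.5 CPM in the dCBP and IHK-44 libraries at 2 h, with changes of -0.95 ± 0.193 (adjusted p = 0.0122) and -0.87 ± 0.192 (adjusted p = 0.0147). With 2 libraries a side these calls were fragile: SIX4 and MEF2D were both lost for dCBP when any of its own 2 h libraries, DMSO or NT of that time was left out, and for IHK-44 without NT or the 1000 nM library of that time. MEF2D was lost for IHK-44 without DMSO or the 100 nM library as well. In the other direction, MEF2C with dCBP, MEF2C with IHK-44 and MYOD1 with IHK-44 each passed at 2 h under 2 of the 26 alternative settings.

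MYOD1 at 2 h stood at 590.2 CPM in DMSO and 508 CPM in NT, at 291 and 309 CPM with 100 nM and 1000 nM dCBP, at 288 and 203 CPM with IHK-44 and at 482 and 256 CPM with A485. These levels are lower than in both controls, but the fitted change of MYOD1 missed the threshold (log2 -0.92 ± 0.584 with dCBP, adjusted p = 0.372, and -1.21 ± 0.588 with IHK-44, adjusted p = 0.293). MYOG at 2 h was at 186 to 210.5 CPM with dCBP and IHK-44, lower in every library than in DMSO (289.7 CPM) and NT (264 CPM). Its fitted log2 change was -0.61 ± 0.412 with dCBP (adjusted p = 0.404) and -0.48 ± 0.410 with IHK-44 (adjusted p = 0.602). MEF2C at 2 h was at 68.5 to 76.0 CPM with dCBP and 77.5 to 81.2 CPM with IHK-44, under DMSO (98.9 CPM) and NT (104 CPM). Its fitted log2 change was -0.54 ± 0.233 with dCBP (adjusted p = 0.181) and -0.40 ± 0.232 with IHK-44 (adjusted p = 0.390). EYA2 at 2 h ranged from 13.7 to 17.3 CPM with dCBP and IHK-44 and overlapped its controls (17.0 and 15.2 CPM). With A485 at 2 h, 0 of 7 members were called (0.0452% of genes), with 2 of 7 at an unadjusted p under 0.05, SIX4 (log2 -1.11 ± 0.373) and MEF2D (-0.59 ± 0.189). With JQAD at 2 h, 0 of 7 members and 0% of genes were called, and 0 members and 138 genes had an unadjusted p under 0.05 (DESeq2 and limma called 0 genes).

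**Figure D2:**
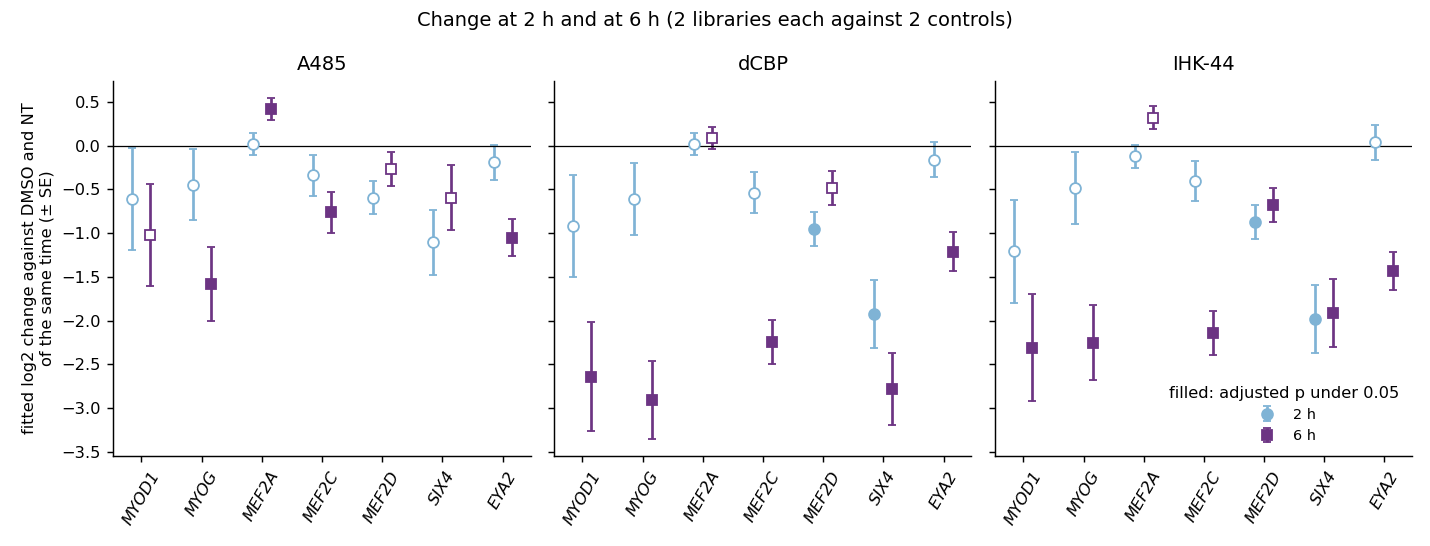
Each panel gives, for A485, dCBP or IHK-44, the fitted log2 change (y axis, ± SE) of the 7 tested factors (x axis) against DMSO and NT of the same time, at 2 h (circles) and 6 h (squares), with filled symbols for an adjusted p under 0.05. SIX4 and MEF2D are the filled symbols at 2 h with dCBP and IHK-44, whereas MYOG, MEF2C and EYA2 are filled at 6 h in all 3 panels.

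Whether the response itself depended on time was tested as the change at 6 h minus that at 2 h. MYOG, MEF2C and EYA2 had a lower 6 h response with dCBP (3 of 7, against 6.4% of genes), and MEF2C and EYA2 with IHK-44 (2 of 7, against 7.76% of genes). The difference was largest for MYOG with dCBP, at a log2 value of -2.30 ± 0.596 (adjusted p = 0.0256). It was -1.70 ± 0.341 for MEF2C with dCBP (adjusted p = 0.00850) and -1.74 ± 0.338 with IHK-44 (adjusted p = 0.00450), and -1.05 ± 0.299 (adjusted p = 0.0371) and -1.48 ± 0.297 (adjusted p = 0.00557) for EYA2. MYOG with IHK-44 had a value of similar size that missed the threshold, at -1.77 ± 0.587 (adjusted p = 0.0667). MYOD1 was at -1.72 ± 0.829 (dCBP, adjusted p = 0.209) and -1.10 ± 0.824 (IHK-44, adjusted p = 0.446). For SIX4 the values were -0.86 ± 0.556 (dCBP, adjusted p = 0.355) and 0.07 ± 0.539 (IHK-44, adjusted p = 0.957), with intervals from -2.10 to 0.38 and from -1.13 to 1.27. With A485, 0 of 7 members were called (0.00754% of genes), with 2 of 7 at an unadjusted p under 0.05, and with JQAD 0 of 7 (0% of genes), with 0 of 7 members and 222 genes at an unadjusted p under 0.05 and 0 genes called by DESeq2 or limma. Without NT as a control, 0 of the 5 calls remained. The dCBP calls of MYOG and EYA2 were also lost without any 1 of the 4 control libraries, without either dCBP library at 2 h and without 1000 nM dCBP at 6 h, and that of EYA2 without any 1 of the IHK-44 or JQAD libraries at 2 h (adjusted p of at most 0.0545).

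Averaged over doses and times, the 4 libraries of each compound were set against the 2 of DMSO. With dCBP, 5 of 7 members fell (11.8% of all genes were called lower), and with IHK-44 4 of 7 (9.21% called lower). SIX4 showed the largest change, with log2 values of -2.24 ± 0.366 with dCBP (adjusted p = 0.00175) and -1.89 ± 0.362 with IHK-44 (adjusted p = 0.00387). Of the other members called with both compounds, MYOD1 followed at -1.78 ± 0.562 (adjusted p = 0.0325) and -1.84 ± 0.558 (adjusted p = 0.0349). MEF2C was next at -1.29 ± 0.390 (adjusted p = 0.0275) and -1.18 ± 0.390 (adjusted p = 0.0474), and MEF2D last at -0.69 ± 0.175 (adjusted p = 0.0138) and -0.76 ± 0.174 (adjusted p = 0.0117). MYOG fell with dCBP (-1.73 ± 0.535, adjusted p = 0.0300), and its value with IHK-44 was -1.43 ± 0.532 (adjusted p = 0.0691). With A485, 0 of 7 members were called (0.271% of genes), with 3 of 7 at an unadjusted p under 0.05, and its members' median log2 value was -0.61 beside 0.01 for all genes. These calls leaned on the DMSO libraries: the dCBP count became 3 without DMSO at 2 h, 1 (SIX4) without DMSO at 6 h and 2 without either dCBP library at 6 h, and the IHK-44 count became 1 and 0 without DMSO at 2 h and at 6 h. With DMSO and NT pooled as the control the count was 6 of 7 for both compounds, all but MEF2A. Calls over all genes also moved with the library left out and rose with this pooling, so these shifts were not particular to the members.

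JQAD left the whole set near its controls. Against DMSO, 0 of 7 members were called with JQAD and 0 of 7 with NT (0% of genes in both comparisons), 0 of 7 at an unadjusted p under 0.05, and DESeq2 and limma called 0 genes too. Over all genes, edgeR gave an unadjusted p under 0.05 for 143 with JQAD and 104 with NT. The JQAD log2 values of the 7 members lay between -0.06 (SIX4) and 0.11 (MEF2D). The 95% interval was narrow for MEF2A (-0.33 to 0.24) and wide for MYOD1 (-1.23 to 1.26), so that for MYOD1 it spans a 2-fold change in either direction.

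**Figure D3:**
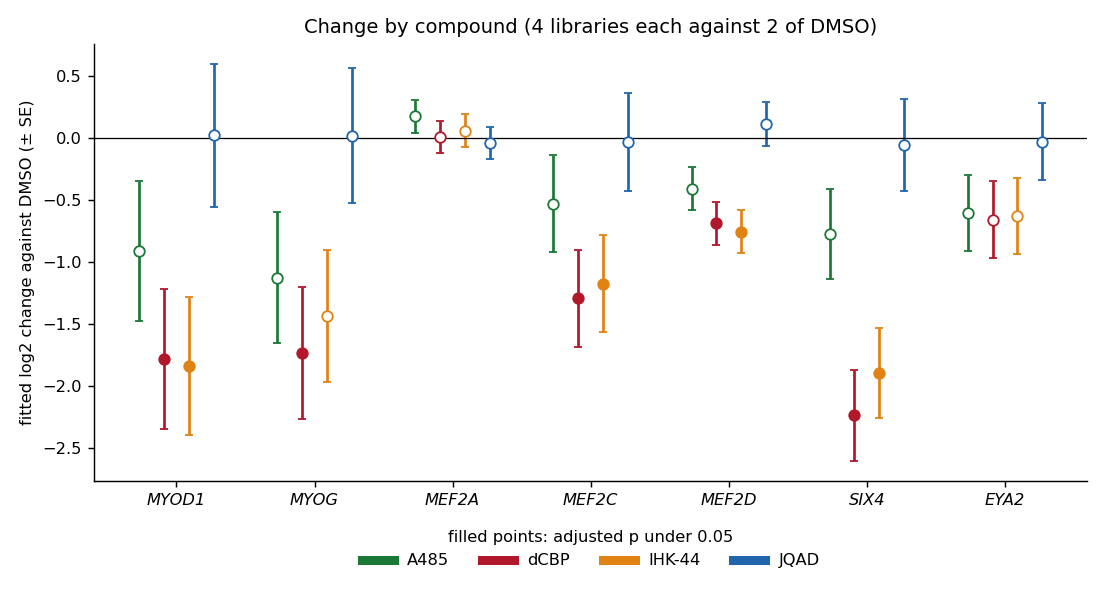
Points give the fitted log2 change (y axis, ± SE) of each of the 7 tested factors (x axis) for the 4 libraries of a compound against the 2 of DMSO, filled where the adjusted p was under 0.05. SIX4 lies lowest with dCBP (-2.24) and IHK-44 (-1.89), MEF2A near 0 with all 4 compounds, and all JQAD points near 0.

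The 4 compounds were also compared directly, in 6 pairs, with p-values adjusted over all genes and pairs together. Against JQAD, 5 of 7 members were lower with dCBP (12% of genes were called lower) and 4 of 7 with IHK-44 (11.5% called lower). SIX4 differed by a log2 value of -2.17 ± 0.324 for dCBP against JQAD (adjusted p = 0.000954) and -1.83 ± 0.317 for IHK-44 against JQAD (adjusted p = 0.00237). SIX4 was also the member that set A485 apart, with log2 values of 1.46 ± 0.322 against dCBP (adjusted p = 0.00990, 1 of 7 members, 2.15% of genes called higher) and 1.12 ± 0.314 against IHK-44 (adjusted p = 0.0310, 1 of 7 members, 2.15% of genes called higher). MEF2D was lower with A485 than with JQAD (-0.52 ± 0.146, adjusted p = 0.0308, 1 of 7 members, 2.69% of genes called lower). Between dCBP and IHK-44, 0 of 7 members differed (0.777% of genes), with 0 of 7 at an unadjusted p under 0.05. The intervals of that difference ran from -0.28 to 0.18 for MEF2A and from -1.27 to 0.67 for MYOG, and the latter spans a 2-fold lower level with dCBP. Of the 12 member differences called in the 6 pairs, 5 remained without 1000 nM JQAD at 6 h and 7 without 100 nM JQAD at 6 h.

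Dose was tested as 1000 nM against 100 nM within each compound, over 2 h and 6 h. SIX4 was lower at 1000 nM A485, by a log2 value of -1.05 ± 0.215 (adjusted p = 0.0480), 1 of 7 members where 0.853% of genes were called lower. Its A485 levels were 66.9 and 27.8 CPM at 100 nM and 1000 nM at 2 h, and 76.6 and 46.8 CPM at 6 h. The call of SIX4 was lost without TMM scaling (adjusted p = 0.0812), with limma, and without any 1 of the A485 or JQAD libraries. For dCBP 0 of 7 members (0% of genes) and for JQAD 0 of 7 (0% of genes) were called, with 0 members at an unadjusted p under 0.05 for either (150 and 262 genes) and 0 genes called by DESeq2 or limma, and the dCBP value of SIX4 was 0.01 ± 0.232, with an interval from -0.64 to 0.65. For IHK-44 0 of 7 members were called (0.107% of genes), with 3 of 7, MYOD1, MYOG and SIX4, at an unadjusted p under 0.05. Their log2 values were -1.89 ± 0.481 (adjusted p = 0.815), -0.98 ± 0.346 (adjusted p = 1.00) and -0.94 ± 0.227 (adjusted p = 0.647). The MYOD1 gap came mostly from 6 h, where 270.1 CPM at 100 nM stood against 27.2 CPM at 1000 nM, while at 2 h the levels were 288 and 203 CPM. The counting interval of the 27.2 CPM was 24.7 to 29.8 CPM, which covers counting error only.

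The balance of MYOD1 to MYOG, compared per length in TPM, differed between libraries. In the 4 controls MYOD1 exceeded MYOG 1.56 to 1.83 times. In 1000 nM IHK-44 MYOG exceeded MYOD1, with a ratio of 0.825 at 2 h (MYOD1 96.5 TPM, MYOG 117 TPM) and 0.740 at 6 h (11.2 and 15.2 TPM), and these were the 2 libraries of the 20 with a ratio under 1. In 1000 nM A485 the ratio was 1.13 at 2 h and 3.39 at 6 h, the latter with MYOG at 58.9 TPM and MYOD1 at 199.5 TPM. In dCBP it was 1.27 and 1.33 at 2 h and 2.02 and 2.39 at 6 h for the lower and the higher dose. With JQAD it stayed between 1.63 and 1.90. These ratios come from single libraries and were not tested.

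**Figure D4:**
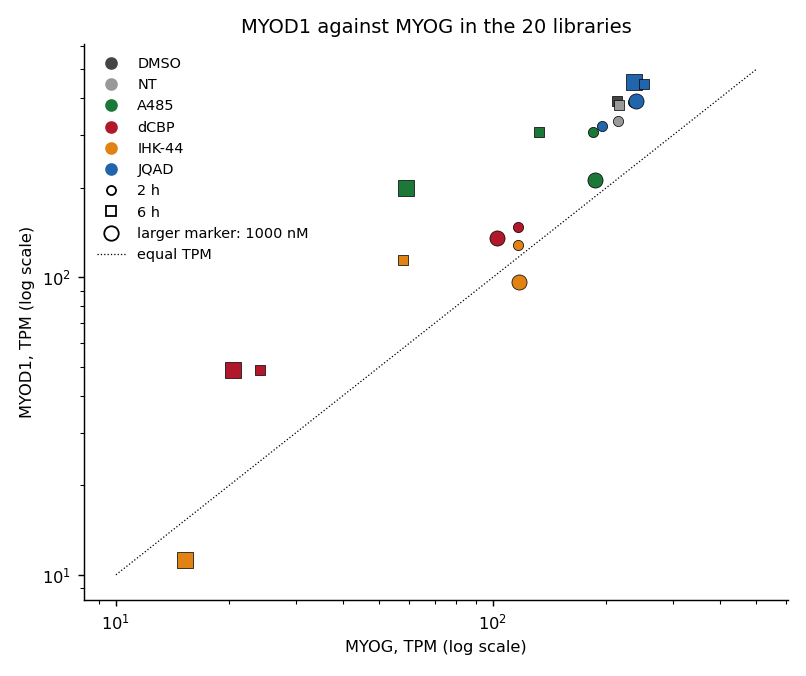
Each symbol is a library, with the TPM of MYOG on the x axis and that of MYOD1 on the y axis (both log scales), coloured by treatment, circles for 2 h, squares for 6 h, larger for 1000 nM. The 2 libraries of 1000 nM IHK-44 lie under the dotted line of equal TPM, and the 1000 nM A485 library at 6 h lies farthest above it, at a ratio of 3.39.

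Other genes of the same circuits were counted in 5 lists in the comparison of each compound with DMSO. With A485 and with JQAD, 0 genes of any list were called, where 0.271% and 0% of all genes were called. The share of all genes called lower in the same comparison stands beside each count with dCBP or IHK-44 against DMSO. In the list of other SIX, EYA and DACH genes, 2 of 6 tested genes fell with dCBP (11.8% of all genes) and 1 of 6 with IHK-44 (9.21%), at medians of -1.07 and -1.12, where the medians of all genes were 0.05 and 0.04. SIX2, a homeodomain factor, fell by 1.66 ± 0.320 on the log2 scale with dCBP (adjusted p = 0.00403) and by 1.76 ± 0.320 with IHK-44 (adjusted p = 0.00282), from 112 ± 2.60 CPM (SD, n = 4) in the controls. EYA1, a paralogue of EYA2, fell by 1.74 ± 0.444 with dCBP (adjusted p = 0.0142), and EYA3 rose by 0.24 with dCBP (1 of 6, where 11.8% of genes were called higher).

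Among partners and antagonists of the helix-loop-helix factors, 8 of 12 tested genes fell with dCBP (11.8% of all genes) and 7 of 12 with IHK-44 (9.21%), at medians of -1.19 and -1.14. The largest changes were those of MSC (musculin, a repressor of MYOD1 activity), at -2.48 ± 0.417 with dCBP (adjusted p = 0.00196) and -2.05 ± 0.414 with IHK-44 (adjusted p = 0.00556), and of ID1 and ID3, which sequester E proteins, at -2.26 and -2.20 with IHK-44. The E protein gene TCF12 fell with both compounds and TCF4 with dCBP, so that partners and antagonists are both among the genes called. The E protein gene TCF3 was not called, at -0.16 ± 0.131 with dCBP (adjusted p = 0.381) and -0.27 ± 0.131 with IHK-44 (adjusted p = 0.154). These E protein genes were chosen after their values were seen. Of the genes upstream of the myogenic factors, 7 of 9 fell with dCBP (11.8% of all genes) and 5 of 9 with IHK-44 (9.21%), at medians of -1.41 and -1.17. MEOX1 changed by -2.57 ± 0.862 with dCBP (adjusted p = 0.0406), PITX3 by -2.34 and -2.12 with dCBP and IHK-44, and FOXO1 by -1.85 and -1.51. The line is known for the PAX3-FOXO1 fusion, and reads of the fusion and of FOXO1 or PAX3 cannot be told apart in these gene counts.

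Of MEF2 partners and repressors, 2 of 10 fell and 1 rose with dCBP, near the 11.8% of all genes called in each direction, and 3 of 10 fell with IHK-44 (9.21% of all genes), at medians of -0.39 and -0.45. VGLL2, a muscle cofactor of TEAD proteins, changed by -2.06 ± 0.542 and -1.87 ± 0.537, the repressor HDAC5 by -1.21 and -1.29, TEAD4 by -0.73 with IHK-44, and CABIN1, a MEF2 repressor, by 0.41 with dCBP. Of muscle genes downstream, 6 of 24 were called with dCBP (11.8% of all genes lower) and 5 of 24 with IHK-44 (9.21%), all lower, at medians of -0.41 and -0.39. The fusion peptide gene MYMX changed by -2.32 ± 0.542 (adjusted p = 0.00989) and -1.69 ± 0.526 (adjusted p = 0.0377), caveolin-3 (CAV3) by -1.64 and -1.55 and the myosin gene MYH8 by -1.17 with IHK-44. DES, also chosen after its values were seen, was not called with dCBP (-0.32 ± 0.166, adjusted p = 0.156). As for the members, these counts leaned on the controls. Without DMSO at 6 h fewer genes of every list were called lower, with dCBP and with IHK-44. With DMSO and NT pooled, the dCBP counts of genes called lower became 3, 8, 7, 5 and 16 in the order of the lists above (the last of 22 tested). For IHK-44 they became 4, 9, 9, 6 and 15. Calls over all genes also moved with the library left out and rose with this pooling, so these shifts were not particular to the lists.

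Over the 20 libraries, MYOD1 varied most like STC2 (Pearson's r = 0.972 on log2(CPM + 1)), IL21R (0.967) and ATOH8 (0.964) among the 12174 genes with a mean of at least 1 CPM. MYOG varied most like ACTC1, the cardiac actin gene also expressed in embryonic muscle (0.981), PDGFA (0.980) and SOX8 (0.980). Within the set, MYOD1 was most like MYOG (0.897), MYOG and EYA2 were most like MEF2C (0.925 and 0.900), MEF2D was most like SIX4 (0.839) and SIX4 most like MYOD1 (0.865). MEF2A had no positive counterpart in the set, its highest value being -0.329 with SIX4. These are descriptions over libraries that share doses, times and treatments, and carry no test.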

How the data were processed

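RNA-seq of RH4 cells was used from 20 libraries, 1 per condition. Per the submitters' processing notes, STAR 2.5.3a and RSEM 1.3.3 and the build hg38 were among the tools and builds of the series. The expected counts deposited by the authors are estimated reads per coding gene. The CPM deposited by the authors match these counts divided by their library's sum over coding rows, as the values show. The TPM deposited by the authors are scaled over all quantified genes, and the coding rows hold 27.9% to 53.9% of them, so TPM of a coding gene also moves with the other rows.

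Rounded expected counts went into edgeR 4.0.16 (quasi-likelihood, TMM, filterByExpr; limma 3.58.1, DESeq2 1.42.0, R 4.3.3, Python 3.11.15). Without replicates of a condition, the libraries of a compound stood in for replicates. They share a cell line and were not stated to be separate cultures, and the spread includes dose or time. The compound fit had a level per treatment and a time term (13260 genes, 13 residual degrees of freedom). The time fit had a level per compound and time, with DMSO and NT together (10), and the dose fit used the treated libraries (13137 genes, 4). P-values were Benjamini-Hochberg adjusted over all genes, and 7 of the 9 members passed the filter. Intervals are 95%, from the SE and these degrees of freedom. Single-library ratios are log2(CPM + 1) differences from DMSO of the same time, which understates changes of low genes. Scripts were tested on simulated data.

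Alternatives were DESeq2, no TMM, no filter, limma with a pseudocount of 1 or 0.1, other controls, TPM and leaving out each library. Named genes of the lists were, among those called, the 3 with the largest change with dCBP or IHK-44 in each direction, and other genes are named where a sentence needs them. 1 gene of the lists is not reported here and is left out of their counts. The members and lists were chosen with earlier results of these data known. Promoter sequences came from RefSeq.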

Additional observations from a re-analysis of the deposited data

Results flagged for a closer look

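Differences between compounds or between times that passed the test are listed here for the members. Between compounds, SIX4 differed with a log2 value of 1.46 for A485 against dCBP, 1.12 for A485 against IHK-44, -2.17 for dCBP against JQAD and -1.83 for IHK-44 against JQAD. MEF2D differed by -0.52 for A485 against JQAD, -0.80 for dCBP against JQAD and -0.86 for IHK-44 against JQAD. MYOD1 differed by -1.80 for dCBP against JQAD and -1.86 for IHK-44 against JQAD, MEF2C by -1.26 and -1.14 in the same pairs, and MYOG by -1.75 for dCBP against JQAD. Between times, the 6 h response minus the 2 h response was -2.30 for MYOG with dCBP, -1.70 and -1.74 for MEF2C with dCBP and IHK-44, and -1.05 and -1.48 for EYA2 with dCBP and IHK-44. These comparisons share control libraries or a compound, so they are not independent of each other. No group had more than 1 library of a condition, so single libraries were not tested as outliers.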

How the results depend on the processing

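Of the 46 member values called in the comparisons, 0 changed direction under the alternatives, and 16 stayed past the threshold under each one run for them. Member counts moved by over 1.5 times as follows. With DMSO as the sole control, the counts became 0 for A485 at 6 h (from 4), dCBP at 2 h (from 2), IHK-44 at 2 h (from 2) and the time dependence (from 5). The dose count (1) became 3 with DESeq2, 2 with no filter, and 0 with no TMM scaling and with limma at either pseudocount, and the A485 count at 2 h (0) became 1 with no filter. Leaving out 1 library at a time gave ranges of 1 to 5 (dCBP against DMSO), 0 to 4 (IHK-44 against DMSO), 0 to 2 and 0 to 5 (A485 at 2 h and 6 h), 0 to 3 (dCBP at 2 h), 0 to 3 (IHK-44 at 2 h), 3 to 8 (time dependence), 0 to 4 (dose) and 5 to 13 (pairs of compounds). Where this leaves 1 library in an arm, that library is assumed to vary like the others. Fewer libraries alone reduce the calls, and the cause of the other shifts was not tested.

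Over all genes, pooling DMSO and NT raised the calls from 36 to 871 (A485), 3137 to 5344 (dCBP) and 2247 to 4605 (IHK-44), and DESeq2 gave 371 for A485. Against DMSO alone the calls fell from 2197 to 49 (A485 at 6 h), 747 to 0 and 6038 to 3888 (dCBP at 2 h and 6 h), 647 to 67 and 5584 to 3414 (IHK-44), and 1202 and 1312 to 0 (time dependence of dCBP and IHK-44). For dose, the A485 calls (122) ranged from 49 (limma) to 243 (no filter). Without TMM scaling the dCBP calls against DMSO split into 1101 lower and 2555 higher, in place of 1567 and 1570, and the IHK-44 calls into 963 and 1929, in place of 1221 and 1026. Of 112 single-library ratios, 16 changed sign with NT as the control and 16 with TPM, but 0 of the 32 of at least 2-fold did. The median log2 ratio of all genes to DMSO ran from -0.45 (100 nM IHK-44 at 2 h) to 0.42 (1000 nM A485 at 6 h) over the treated libraries in TPM, and from -0.02 to 0.22 in CPM. No paired analysis by replicate number was possible because each RNA-seq condition has 1 library, so that the groups share no more than 1 replicate number. The dose fit did compare the 2 doses within each compound and time. Time was a term of the compound fit.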
